A study of Drosophila sechellia and Drosophila simulans with 8 samples.

Results

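The Greek-letter trypsins of Drosophila are a family of digestive serine protease genes, and 9 of them were followed here in the bodies of adult females of 2 sister species. The members are alphaTry, betaTry, epsilonTry, thetaTry, zetaTry, etaTry, iotaTry, kappaTry and lambdaTry, and each was taken as the probe set whose only gene symbol is that name. Every member had 1 such probe set, which makes 9 genes of the 11982 that the array covers with probe sets of a single symbol. RNA was measured on 8 Affymetrix arrays in 4 groups of 2, namely Drosophila sechellia under choice, D. sechellia under no choice, Drosophila simulans under choice and D. simulans under no choice. The flies were or were not offered a choice involving octanoic and hexanoic acid, and the design crosses species with choice. Rearing was at 25 °C on cornmeal medium with yeast and agar, and all samples are total RNA of female bodies. Strain, age, the number of flies per sample and the length of the assay are not given in the sources used here. Arrays of a group are numbered 1 and 2, with no statement that they hold RNA of separate flies, so a p-value measures only the spread of these samples, which may be technical.

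Trypsins are endopeptidases that cut proteins after lysine or arginine. Fly midgut cells secrete them as inactive precursors into the gut lumen, where they open up dietary protein so that other peptidases can finish its breakdown. In Drosophila melanogaster most of the Greek-letter trypsin genes sit together in a single cluster of tandem duplicates, and alphaTry and betaTry belong to its most similar copies. Octanoic and hexanoic acid are the main volatile acids of the fruit of Morinda citrifolia, on which D. sechellia specialises, while D. simulans is a generalist.

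Signal is the deposited linear probe-set intensity, without a unit, and differences are given on the log2 scale with their standard error. The probes were designed for D. melanogaster, so a species difference in RNA and a species difference in how well the probes match cannot be told apart. A probe set can also bind RNA of a close copy, which leaves alphaTry and betaTry uncertain as single genes, and levels of different members are not compared with each other. Among the 8 arrays, array 1 of sechellia choice differed from all others. Its correlation with them over 13138 probe sets was 0.674 to 0.72, where the other same-group arrays correlated at 0.963 to 0.969. Its median signal was 316.7 against 110.7 to 129.8, and the median signal of its Bacillus controls, probe sets for bacterial genes, was 126.4 against 12.3 to 21.5. Results are therefore given over 8 arrays and again without this array, as 7 arrays, where sechellia choice rests on its array 2 alone and is assumed to vary like the other groups. In whole bodies, fewer gut cells and less trypsin RNA per gut cell cannot be told apart.

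The family was split between the species. The signals of alphaTry, betaTry, epsilonTry and thetaTry were lower in sechellia, those of lambdaTry, zetaTry, etaTry and iotaTry were higher, and kappaTry did not pass the test. The sechellia signals of epsilonTry, betaTry and alphaTry were below those of simulans by log2 -6.84 ± 0.37, -5.24 ± 0.28 and -3.72 ± 0.18 averaged over treatments (SE, n = 4 arrays per species), and that of lambdaTry was above it by 2.23 ± 0.24. The fitted size for epsilonTry is uncertain, because its sechellia signals lie near background. For each of the 8 members that passed, all 4 sechellia arrays lay on the same side of all 4 simulans arrays. Such separation was seen for 21.9% of all tested probe sets.

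epsilonTry showed the widest range. Its signal was 131.8 and 44.4 on arrays 1 and 2 of sechellia choice and 68.3 and 160.9 on those of sechellia no choice, against 10740.4 and 10576.3 in simulans choice and 9363.8 and 10286.1 in simulans no choice. The 4 simulans arrays lay close together, with the higher array of a group at 1.02 and 1.1 times the lower in choice and no choice, while the sechellia arrays differed 2.97-fold and 2.36-fold. The sechellia signals lay near background: on both choice arrays and on 1 of the no choice arrays they were below the highest Bacillus control of the same array, although above the median of these controls on all 4. The species difference of epsilonTry was called at an adjusted p of 5.3e-05 with 8 arrays, and with 7 arrays it was log2 -7.23 ± 0.25 (adjusted p = 2.3e-07). In a step added after seeing the data, signals below the highest Bacillus control of their array were raised to it. This raised 3 sechellia arrays in the set of 8 and 2 in the set of 7. epsilonTry was then 57.2-fold lower in sechellia with 8 arrays and 107-fold lower with 7, as point values without an error.

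betaTry had signals of 1134.7 and 416 in sechellia choice and 150 and 163.3 in sechellia no choice, against 13028.6 and 12586.7 in simulans choice and 11461.8 and 12546.2 in simulans no choice. All simulans arrays were above all sechellia arrays, and both sechellia choice arrays were above both no choice arrays. The species difference was 37.8-fold with 8 arrays (adjusted p = 5.3e-05) and 48.6-fold with 7, at log2 -5.6 ± 0.06 (adjusted p = 3.8e-10). In order of level, simulans choice was followed by simulans no choice, sechellia choice and sechellia no choice, with no overlap of neighbouring groups. The gap between the simulans groups, from 12546.2 to 12586.7, was narrower than the spread within simulans no choice.

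alphaTry had signals of 1448.3 and 1664.6 in sechellia choice and 452.1 and 689.4 in sechellia no choice, against 12965.8 and 13316.4 in simulans choice and 10114.3 and 12876.5 in simulans no choice. The order of groups was that of betaTry, again without overlap, although the gap between the simulans groups, from 12876.5 to 12965.8, was narrower than the spread within simulans no choice. The species difference was 13.2-fold with 8 arrays (adjusted p = 2.6e-05) and log2 -3.67 ± 0.14 with 7 (adjusted p = 4.9e-07). Unlike those of epsilonTry, the lowest sechellia signals of alphaTry were 21 times the Bacillus median of their array in no choice and 11.5 times in choice.

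thetaTry was lower in sechellia by a smaller margin. Its signal was 344.4 and 231.6 in sechellia choice and 192.8 and 193.2 in sechellia no choice, against 507.8 and 545.9 in simulans choice and 471.7 and 525.3 in simulans no choice. The difference was log2 -1.13 ± 0.19 with 8 arrays (adjusted p = 0.0089) and -1.28 ± 0.11 with 7 (adjusted p = 5.2e-05). The simulans groups overlapped, and both lay above both sechellia groups. The call was lost, at an adjusted p of up to 0.07, when any of the 6 arrays outside sechellia choice was left out.

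**Figure D1:**
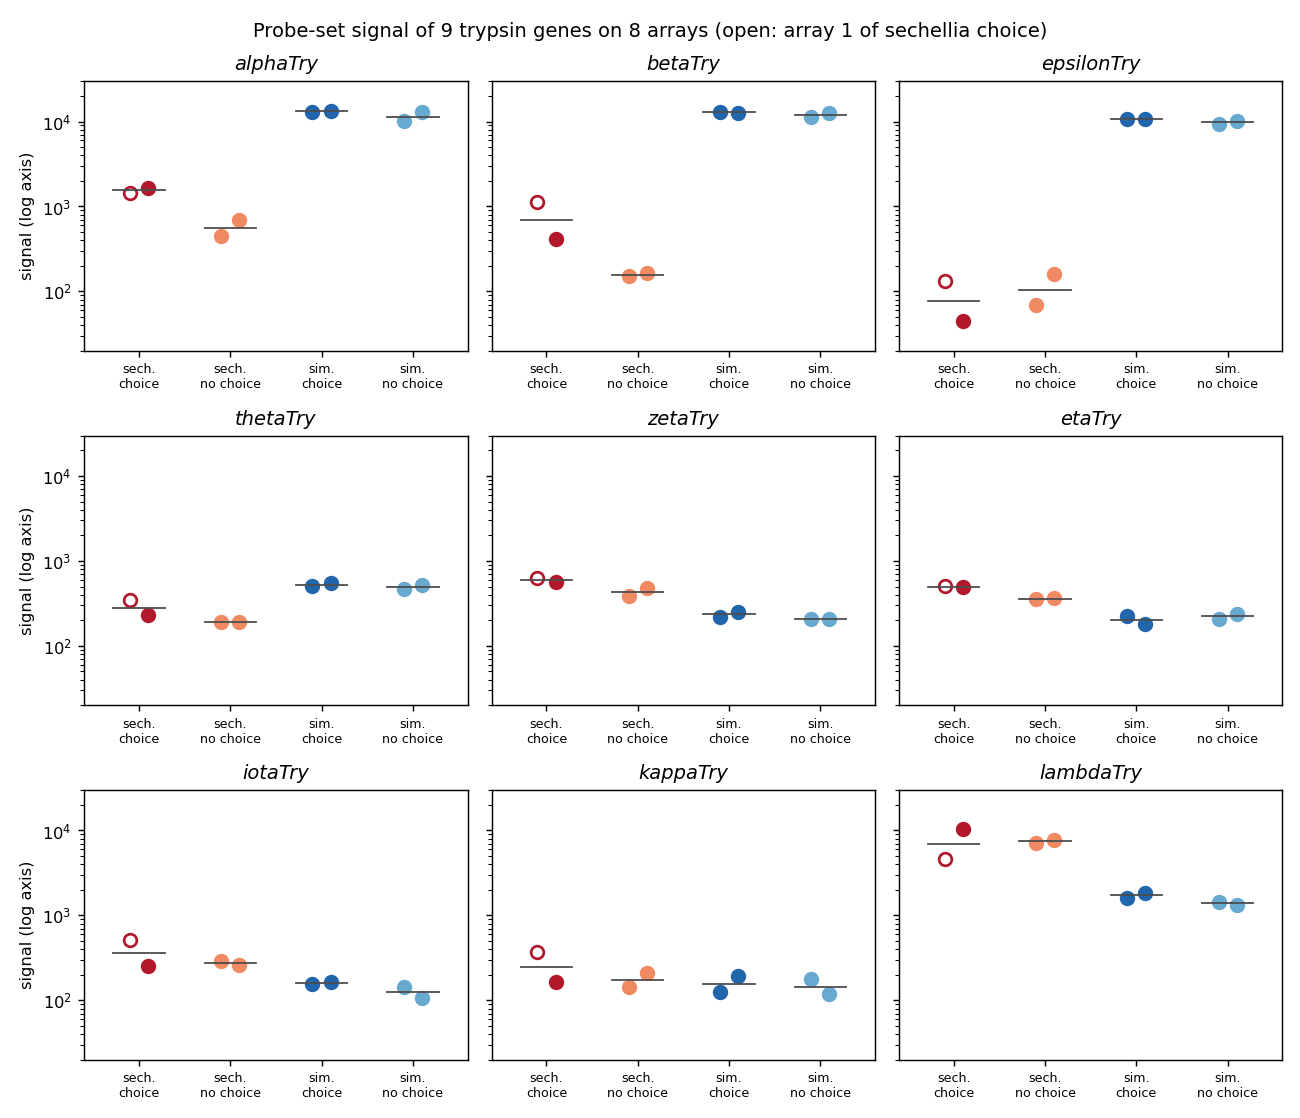
Signal of each trypsin gene on each of the 8 arrays, on a log axis, by group; a point is an array, the open point is array 1 of sechellia choice and the line is the geometric mean of a group. alphaTry, betaTry and epsilonTry reach at most 1664.6 on the sechellia arrays and at least 9363.8 on the simulans arrays, whereas lambdaTry is at least 4646.2 on the sechellia arrays and at most 1833.2 on the simulans arrays.

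lambdaTry ran in the opposite direction. Its signal was 4646.2 and 10471.5 in sechellia choice and 7216.9 and 7784.5 in sechellia no choice, against 1609.4 and 1833.2 in simulans choice and 1444.6 and 1334.4 in simulans no choice. The species difference was 4.68-fold with 8 arrays (adjusted p = 0.0014) and 5.74-fold with 7, at log2 2.52 ± 0.07 (adjusted p = 6.6e-08). Over the 7 arrays the groups fell in the order sechellia choice, sechellia no choice, simulans choice, simulans no choice without overlap of neighbours. Array 1 of sechellia choice lay below both sechellia no choice arrays.

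zetaTry had signals of 633.2 and 570.4 in sechellia choice and 384.5 and 480.2 in sechellia no choice, against 220.1 and 251.3 in simulans choice and 208 and 207.8 in simulans no choice. The 4 groups did not overlap, with both sechellia groups on top. Sechellia was higher by log2 1.2 ± 0.17 with 8 arrays (adjusted p = 0.0048) and by 1.16 ± 0.13 with 7 (adjusted p = 2.5e-04).

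etaTry had signals of 502.6 and 494.3 in sechellia choice and 356.2 and 366.3 in sechellia no choice, against 224 and 181.1 in simulans choice and 207.4 and 238.7 in simulans no choice. The 2 simulans groups overlapped and the sechellia groups lay above them, each with its arrays within 1.02-fold and 1.03-fold in choice and no choice. Sechellia was higher by log2 1 ± 0.18 with 8 arrays (adjusted p = 0.012) and by 1 ± 0.14 with 7 (adjusted p = 7.6e-04).

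iotaTry had signals of 508.1 and 254.6 in sechellia choice and 290.8 and 258.9 in sechellia no choice, against 156.8 and 163 in simulans choice and 142.7 and 107.8 in simulans no choice. The sechellia arrays were all above the simulans arrays, while array 2 of sechellia choice was close to the lower no choice array. Sechellia was higher by log2 1.16 ± 0.29 with 8 arrays (adjusted p = 0.042) and by 0.91 ± 0.18 with 7 (adjusted p = 0.0046). The 8-array calls of etaTry and iotaTry were lost without any of the 6 arrays outside sechellia choice in turn.

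kappaTry is the member whose arrays overlapped between the species. Its signal was 373 and 165 in sechellia choice and 142.7 and 209.3 in sechellia no choice, against 126.2 and 192.8 in simulans choice and 178.1 and 117.3 in simulans no choice. Over the 7 arrays every group overlapped its neighbour in level. The species difference was log2 0.46 ± 0.36 with 8 arrays (adjusted p = 0.46, 95% interval -0.38 to 1.3) and 0.17 ± 0.26 with 7 (adjusted p = 0.67, 95% interval -0.43 to 0.77), which does not show that the species have the same level.

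With 8 arrays, 8 of the 9 members were called between the species, 4 higher and 4 lower in sechellia, where 9.87% of all tested probe sets were called, 4.41% higher and 5.46% lower. With 7 arrays the same 8 members were called, beside 32.5% of all tested probe sets, 16.9% higher and 15.6% lower. The members' median difference was log2 0.46 with 8 arrays and 0.17 with 7, against 0.14 and 0.07 over all tested probe sets, so the median does not show the split within the family. Centring each of the 8 arrays on its own median, which moved the median of all probe sets from 0.14 to -0.3, left 0 members called as higher and 4 as lower. Quantile normalization of the 8 arrays left 2 as higher and 4 as lower, with etaTry at 0.75 (adjusted p = 0.11) and iotaTry at 0.86 (adjusted p = 0.08) losing their calls. After median centring lambdaTry was 1.79 (adjusted p = 0.14) and zetaTry 0.76 (adjusted p = 0.24). Centring the 7 arrays kept 4 higher and 4 lower.

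Within each treatment the directions were those of the average. Under choice, 6 members were called with 8 arrays, alphaTry, betaTry and epsilonTry as lower and lambdaTry, zetaTry and etaTry as higher in sechellia, where 4.14% of all tested probe sets were called, 1.89% higher and 2.25% lower. With 7 arrays thetaTry joined them, which made 7 of 9 beside 19.4% of all, 9.61% higher and 9.78% lower. Under no choice 5 members were called with 8 arrays, the 4 lower ones and lambdaTry, beside 4.22% of all, 1.83% higher and 2.38% lower. With 7 arrays 8 were called, beside 28.2% of all, 14.5% higher and 13.7% lower. The no choice means hold no sechellia choice array, so the same differences were tested with less spread in the fit of 7.

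For alphaTry and betaTry the species gap was narrower under choice. alphaTry differed between the species by log2 -3.08 ± 0.25 under choice and -4.35 ± 0.25 under no choice with 8 arrays, and by -2.98 ± 0.22 and -4.35 ± 0.18 with 7. betaTry differed by -4.22 ± 0.4 under choice and -6.26 ± 0.4 under no choice with 8 arrays, and by -4.94 ± 0.1 and -6.26 ± 0.08 with 7. The test of this change in gap is the interaction given with the choice effects. epsilonTry differed by -7.12 ± 0.53 and -6.55 ± 0.53 with 8 arrays under choice and no choice, and lambdaTry by 2.02 ± 0.35 and 2.43 ± 0.35. Fitted on only the 4 choice arrays, epsilonTry alone kept its call under choice, while alphaTry (adjusted p = 0.065) and betaTry (adjusted p = 0.074) did not.

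**Figure D2:**
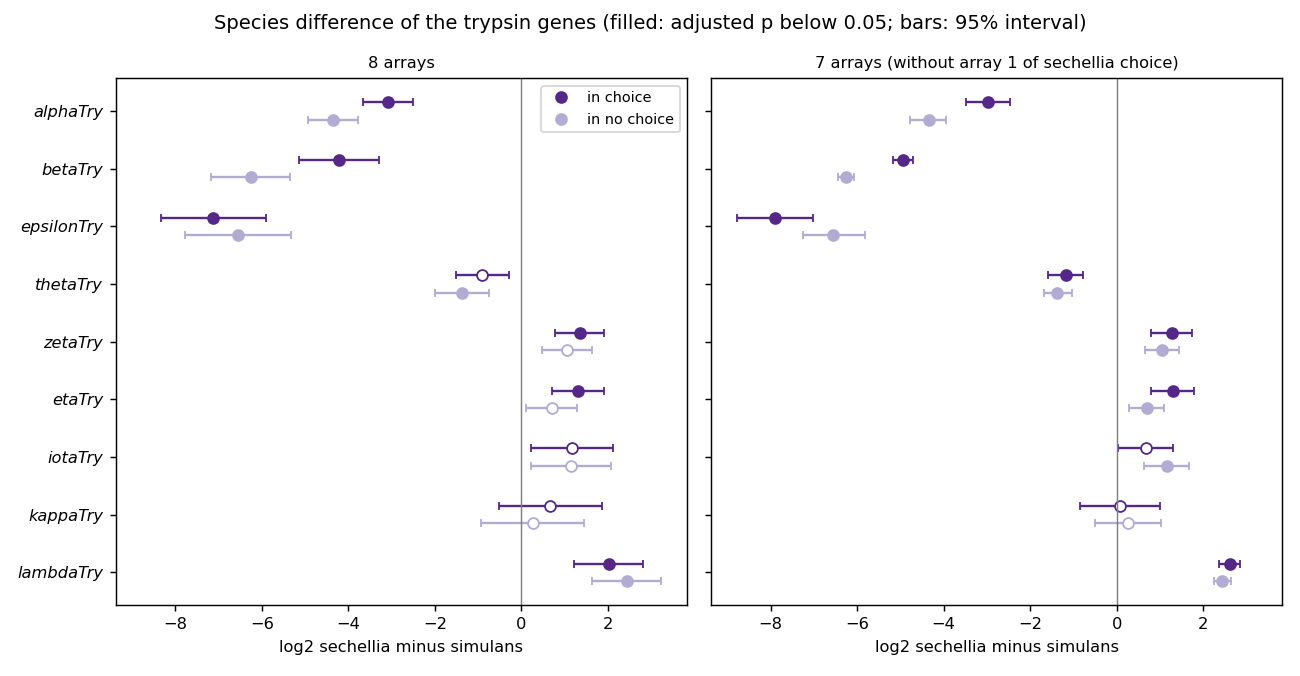
Log2 difference of sechellia minus simulans for each trypsin gene, under choice and under no choice, with 95% intervals, over 8 arrays (left) and 7 arrays (right); filled points have an adjusted p below 0.05. alphaTry, betaTry and epsilonTry lie between -7.91 and -2.98 in both panels, lambdaTry lies between 2.02 and 2.61, and the intervals of kappaTry cross 0.

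In sechellia, alphaTry and betaTry had the largest fitted rises under choice once array 1 of sechellia choice was left out. With 7 arrays both rose under choice, alphaTry by log2 1.58 ± 0.22 (2.98-fold, adjusted p = 0.01) and betaTry by 1.41 ± 0.1 (2.66-fold, adjusted p = 2.3e-04). The choice level there is a single array, with 1664.6 for alphaTry and 416 for betaTry, against no choice signals of 452.1 and 689.4 for alphaTry and 150 and 163.3 for betaTry. These 2 of 9 members stood beside 2.49% of all tested probe sets called, 1.58% as higher. Even so, their array 2 signals in sechellia choice remained 7.89-fold and 30.8-fold below those of simulans choice.

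With 8 arrays limma called 0 of the 9 members between choice and no choice in sechellia, where 0.0533% of all tested probe sets were called. Beside 1865 of 13138 tested probe sets, an unadjusted p below 0.05 was seen for 2 members. These were alphaTry at log2 1.48 ± 0.25 (adjusted p = 0.17) and betaTry at 2.13 ± 0.4 (adjusted p = 0.2). Both arrays of sechellia choice were above both no choice arrays for alphaTry, betaTry, thetaTry, zetaTry and etaTry, 5 of 9 members, as for 26.4% of all tested probe sets. No member had both choice arrays below both no choice arrays, against 18.5% of all, so that 44.9% of all were separated in either direction. thetaTry, zetaTry and etaTry gave 0.55 ± 0.27, 0.48 ± 0.25 and 0.46 ± 0.26 with 8 arrays and 0.26 ± 0.17, 0.41 ± 0.21 and 0.45 ± 0.22 with 7, without passing the test. These directions depend on the scaling of the 8 arrays: median centring, which moved the median of all probe sets from 0.19 to -0.59, gave -0.23 for thetaTry, -0.29 for zetaTry and -0.31 for etaTry, and quantile normalization gave -0.2, 0.26 and 0.04. alphaTry was 0.7 and betaTry 1.36 after median centring, and 1.63 and 2.12 after quantile normalization, with no call for either.

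The remaining members had smaller fitted rises than alphaTry and betaTry, or fell. With 7 arrays lambdaTry rose too and epsilonTry fell, both without passing the test. epsilonTry gave log2 -0.45 ± 0.53 with 8 arrays (adjusted p = 0.59) and -1.24 ± 0.38 with 7 (adjusted p = 0.14), its array 2 signal of 44.4 being the lowest of the series for this probe set. lambdaTry gave -0.1 ± 0.35 with 8 arrays (adjusted p = 0.85) and 0.48 ± 0.11 with 7 (adjusted p = 0.055), and iotaTry and kappaTry 0.39 ± 0.41 and 0.52 ± 0.51 with 8 arrays, and -0.11 ± 0.28 and -0.07 ± 0.41 with 7. With array 1 kept and array 2 left out, the choice level rests on array 1 alone, and lambdaTry was lower in choice at -0.69. alphaTry was 1.38 and betaTry 2.86 there.

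The 2 arrays of sechellia choice were set side by side at like signals, a step added after seeing the data. For each member, the log2 ratio of array 1 over array 2 was read beside the same ratio in all tested probe sets within 0.25 log2 units of the member's array 2 signal. lambdaTry was at -1.17, where the 69 probe sets of like signal had a median of -1.1. kappaTry was at 1.18 beside a median of 1.04, thetaTry at 0.57 beside 0.66, and etaTry at 0.02 beside 0.08. zetaTry was at 0.15 beside 0, iotaTry at 1 beside 0.52, with 69.5% lower, and epsilonTry at 1.57 beside 2.49. betaTry stood out at 1.45, where 1010 probe sets of like signal had a median of 0.13 and 96% of them lay lower. alphaTry was at -0.2 beside -0.57, with 80.2% lower, inside the 10th to 90th percentile range of -1.36 to 0.02.

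In simulans limma called 0 of the 9 members between choice and no choice with either set of arrays, where 0.00761% of all tested probe sets were called with 8 arrays and 0.274% with 7, 0.213% as higher and 0.0609% as lower. With 8 arrays 0 members had an unadjusted p below 0.05, beside 243 of 13138 tested probe sets. lambdaTry gave log2 0.31 ± 0.09 with 7 arrays, without a call. Its 95% interval was 0.11 to 0.5 with 7 arrays and -0.49 to 1.11 with 8. alphaTry gave 0.2 ± 0.18, betaTry 0.09 ± 0.08 and epsilonTry 0.12 ± 0.31 with 7 arrays. The 95% intervals with 7 arrays were -0.21 to 0.62 for alphaTry and -0.09 to 0.28 for betaTry. With 8 arrays they were -0.38 to 0.78 and -0.82 to 1.01. For alphaTry and betaTry the fitted choice effects in sechellia lay above these intervals with the same arrays. Such intervals cover only the spread of these samples, which may be technical, so they do not bound the response of simulans flies. Both choice arrays were above both no choice arrays for alphaTry, betaTry, epsilonTry, zetaTry, iotaTry and lambdaTry, 6 of 9 members beside 24.5% of all tested probe sets, and below them for none, beside 22.7% of all and 47.2% in either direction.

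Whether the species responded differently was tested by the interaction, sechellia's choice effect less that of simulans. With 7 arrays it was called for alphaTry at log2 1.37 ± 0.29 (adjusted p = 0.046) and for betaTry at 1.32 ± 0.13 (adjusted p = 0.0017), 2 of 9 members beside 2.79% of all tested probe sets. Centring the 7 arrays on their medians gave 1.29 for alphaTry, which then lost its call (adjusted p = 0.05 after rounding). The same value is the narrowing of the species gap under choice. With 8 arrays limma called 0 members beside 0.0152% of all. Beside 898 of 13138 tested probe sets, an unadjusted p below 0.05 was seen for 2 members. These were alphaTry at 1.27 ± 0.35 and betaTry at 2.04 ± 0.56, each at an adjusted p of 0.64. epsilonTry ran the other way at -1.36 ± 0.49 with 7 arrays (adjusted p = 0.21), and the other 6 members lay between -0.47 and 0.6.

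**Figure D3:**
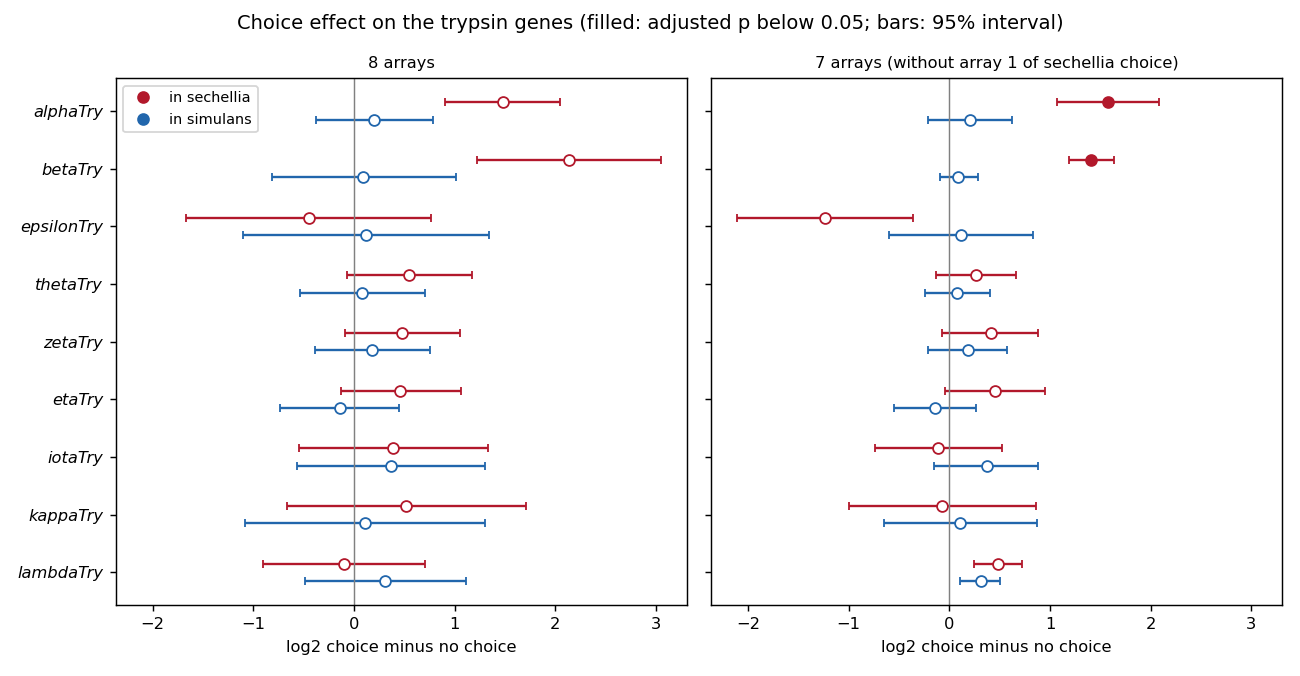
Log2 difference of choice minus no choice for each trypsin gene in sechellia and in simulans, with 95% intervals, over 8 arrays (left) and 7 arrays (right); filled points have an adjusted p below 0.05. With 7 arrays the sechellia values of alphaTry (1.58) and betaTry (1.41) are the filled points, and the simulans values lie between -0.14 and 0.37.

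The arrays of sechellia choice were the least alike for these genes. Over the 9 members the higher array was a median of 2 times the lower in sechellia choice and 1.12 times in sechellia no choice, against 1.08 times in simulans choice and 1.11 times in simulans no choice. The widest pairs were those of epsilonTry in both sechellia groups and of kappaTry in both simulans groups, at 1.53-fold in choice and 1.52-fold in no choice. No member lay below the Bacillus median of its array on any of the 8 arrays, but on array 1 of sechellia choice thetaTry, zetaTry, etaTry, iotaTry and kappaTry, like epsilonTry, were below the highest Bacillus control, at 757.6.

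The profiles most like the members' were sought for alphaTry, betaTry and epsilonTry, whose log2 signal spanned 4.88, 6.44 and 7.92 over the 7 arrays, more than the 3 units set as the limit. Likeness is the root mean square (RMS) difference of log2 signal, each gene centred on its mean over the 7 arrays. Nearest to betaTry was Jon25Bi, a gene of the Jonah serine proteases, at an RMS of 0.21, with signals of 630.2 and 203.2 in sechellia choice and 62.2 and 83.1 in sechellia no choice, against 7901.3 and 8370.4 in simulans choice and 6682.8 and 6816.5 in simulans no choice. Its no choice signals in sechellia were below the highest Bacillus control of their arrays, at 137.2 and 114.9, so no size is given for its choice effect. CG18180 and CG17192 followed at 0.29 and 0.33. All their sechellia signals were below the highest Bacillus control of their arrays, and those of CG17192 were also below the Bacillus median.

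Nearest to epsilonTry was another Jonah gene, Jon25Biii, at an RMS of 0.4, followed by CG18180 at 0.79 and CG17571 at 0.91. Jon25Biii had signals of 162.6 and 54.1 in sechellia choice and 108.7 and 100.7 in sechellia no choice, against 8958.6 and 9206.1 in simulans choice and 8963.6 and 9058.1 in simulans no choice. All 4 of these sechellia signals were below the highest Bacillus control of their arrays. The sechellia no choice signals of CG17571 were below it too. Nearest to alphaTry were the lysozyme gene LysS and CG4783, each at 0.33, and GstE6, a glutathione transferase gene, at 0.39. LysS had 742.7 and 174.7 in sechellia choice and 28.3 and 40.1 in sechellia no choice, against 722.1 and 687.5 in simulans choice and 611.6 and 661.6 in simulans no choice. Its sechellia no choice signals were likewise below the highest Bacillus control.

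**Figure D4:**
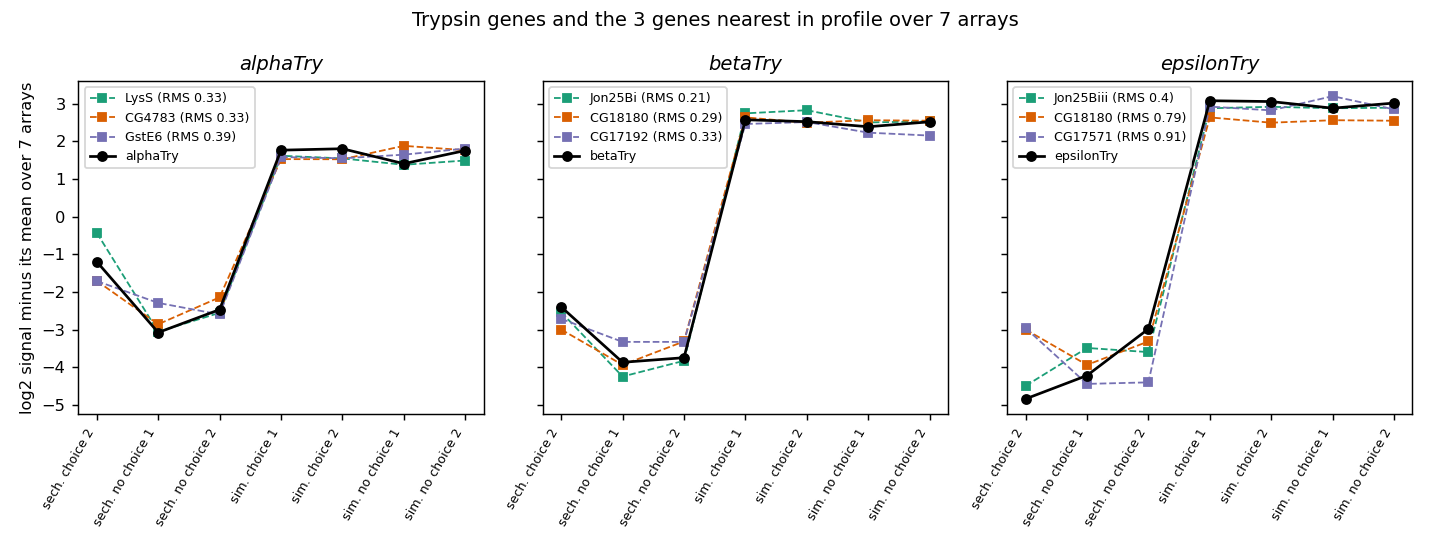
Log2 signal of alphaTry, betaTry and epsilonTry, each minus its mean over 7 arrays, with the 3 genes nearest in profile; points are arrays, lines only join points of the same gene, and RMS is the root mean square difference. The step between the sechellia and simulans arrays is common to all of them, and betaTry and Jon25Bi, at an RMS of 0.21, are the closest pair shown.

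Other digestive genes were read as lists beside the family, with the brightest probe set of each gene. Between the species with 8 arrays, their counts and those of the tissue markers stand beside 9.87% of all tested probe sets called. Of all 13138, 3230 had an unadjusted p below 0.05 there. Other counts of calls are to be read beside the shares given above for the same comparison and arrays. Of 12 tested Jonah proteases, serine proteases of the midgut, limma called 10 as lower and 0 as higher in sechellia over the 8 arrays, 11 having an unadjusted p below 0.05, with a median of log2 -3.73. With 7 arrays 11 were lower, with a median of -4.29. No Jonah gene was thus called in the direction of lambdaTry, zetaTry, etaTry and iotaTry. Under choice in sechellia 1 Jonah gene rose with 8 arrays, and 6 rose and 1 fell with 7. Among these, Jon25Bi and Jon65Aiv rose and Jon25Biii fell with no choice signals below the highest Bacillus control. Jon25Bii, Jon74E, Jon65Ai and Jon65Aiii rose with no choice signals above it, by log2 2.24, 1.26, 1.85 and 0.93 with 7 arrays. For Jon65Ai, array 1 of sechellia choice, at 260.6, lay below both no choice arrays, at 354.5 and 375.1. All of these are named here after their values were seen.

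Of 18 other named trypsin-like serine proteases, which act in digestion, immunity, reproduction and embryonic patterning, 1 was higher and 2 were lower in sechellia with 8 arrays, with a median of log2 -0.19. Ser6 was higher at 0.84 ± 0.12 (adjusted p = 0.0053), and Ser12 and grass, the last a protease of the Toll pathway, were lower at -1.35 ± 0.19 (adjusted p = 0.0038) and -0.91 ± 0.22 (adjusted p = 0.042). With 7 arrays 3 were higher and 2 lower. Under choice in sechellia 0 of the 18 were called with 8 arrays, 6 having an unadjusted p below 0.05, and with 7 arrays 4 rose, yip7, Ser8, Ser12 and the ovarian protease gene ndl, which are named here after their values were seen.

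Among 14 tested peptidases of other classes, 2 were higher and 2 lower in sechellia with 8 arrays, with a median of log2 0.1, and 6 and 4 with 7. Of 30 genes of starch, sugar and fat digestion, 7 were higher and 3 lower with 8 arrays, with a median of 0.01, and 8 and 10 with 7. Npc2d, of a sterol-binding family, was higher at 2.93 ± 0.15 (adjusted p = 4.2e-05), and Mal-B1, of the maltase family, was lower at -3.8 ± 0.21 (adjusted p = 5.3e-05). Of 20 regulators of midgut enzymes and gut hormones, 1 was higher and 2 lower with 8 arrays, with a median of -0.11, and 2 and 6 with 7. Higher was tobi, which is also on the list of starch, sugar and fat digestion, at 1.65 ± 0.13 (adjusted p = 3.3e-04). Lower were srp, a GATA factor gene, at -1.33 ± 0.28 (adjusted p = 0.022), and babo, an activin receptor gene, at -0.92 ± 0.14 (adjusted p = 0.0056).

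**Figure D5:**
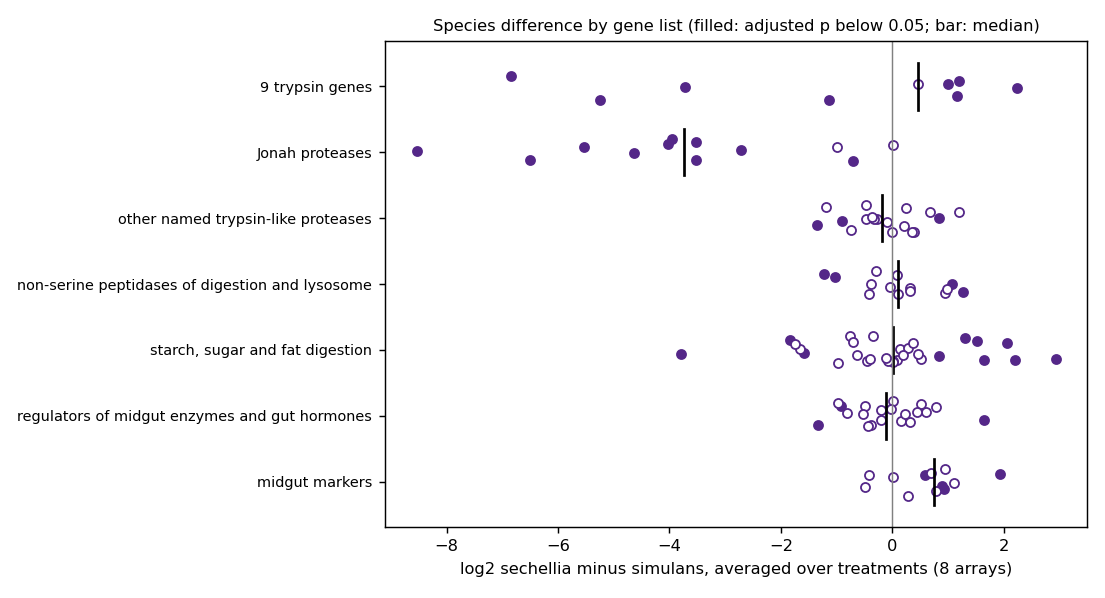
Log2 difference of sechellia minus simulans averaged over treatments (8 arrays) for the 9 trypsin genes and 6 lists; a point is a gene, filled where the adjusted p is below 0.05, and the bar is the median. The trypsin genes spread from -6.84 to 2.23 on both sides of 0, the Jonah proteases have a median of -3.73, and the midgut markers one of 0.74.

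Markers of the midgut moved in sechellia too, and their part in the trypsin results was not tested. Of 12 midgut markers with a probe set, 4 were higher and 0 lower in sechellia with 8 arrays, 7 having an unadjusted p below 0.05, and 5 were higher and 2 lower with 7. Higher were mex1, of absorptive cells, at log2 0.89 ± 0.13 (adjusted p = 0.0056), the mucin-like gene Mur29B at 1.93 ± 0.18 (adjusted p = 5.6e-04), PGRP-LB at 0.92 ± 0.16 and Drip at 0.58 ± 0.14. The summed signal of the 12 was 9059 and 8736 in sechellia choice and 6619 and 7219 in sechellia no choice, against 6732 and 7010 in simulans choice and 6506 and 6527 in simulans no choice. GATAe, a midgut transcription factor gene, was at 0.79 ± 0.25 with 8 arrays (adjusted p = 0.1) and was higher at 0.89 ± 0.21 with 7 (adjusted p = 0.012). The 2 lower with 7 arrays were Muc68D and PGRP-SC2. Under choice in sechellia limma called 0 midgut markers with 8 arrays, 2 having an unadjusted p below 0.05, and 1 with 7, PGRP-LB at 0.93 (adjusted p = 0.033), when 3 had an unadjusted p below 0.05. The median of the 12 with 7 arrays was 0.42, against 0.04 over all tested probe sets. No midgut marker lay below the Bacillus median on all 7 arrays, and the markers named here beyond Mur29B and PGRP-LB were picked after their values were seen.

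Markers of other tissues were read in the same way. Of 8 ovary markers 5 were lower in sechellia with 8 arrays and 6 with 7, with summed signals of 35133 and 69685 in sechellia choice and 39033 and 41806 in sechellia no choice, against 83313 and 82753 in simulans choice and 95502 and 102638 in simulans no choice. Under choice in sechellia 1 of the 8 rose with 8 arrays and 6 with 7, beside alphaTry and betaTry. Of 6 fat body markers 1 was higher with 8 arrays, and both head and eye markers were higher. limma called 0 of 3 muscle, 3 neuron and 4 male reproductive markers with 8 arrays, and 0 of these had an unadjusted p below 0.05. The single Malpighian tubule marker was called as higher with 7 arrays. The part of these tissues in the trypsin results was not tested.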

How the data were processed

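The authors deposited 1 linear intensity per probe set and array; MAS5 is the tool named in the submitters' processing notes, without a version. The 8 arrays were already scaled, with a mean of 500 after trimming 2% at each end, and were used as deposited on the log2 scale; the number of arrays limits the precision. Of 18952 probe sets, 183 controls and the 30% of the others with the lowest mean log2 signal were left out, which left 13138, all 9 members included. Symbols are those of the D. melanogaster probe annotation; 13647 probe sets carry 1, 402 several and 4720 none. No member was matched in the D. sechellia gene table, so no position is given.

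A model with 1 mean per group and no block was fitted by limma 3.58.1 (lmFit, eBayes with an intensity trend; R 4.3.3). The Benjamini-Hochberg adjustment ran over all tested probe sets, with calls below 0.05. The fit was checked on simulated data. Background was read from 27 Bacillus control probe sets of an array, by their median and by the highest of them. Signals called near background were set against the highest. The members and gene lists were chosen with earlier results of these data known. All members are named, with the 3 genes nearest in profile to a member spanning more than 3 log2 units; from the lists, genes among the 2 with the largest called change in each direction are named, and the text marks those picked after their values were seen. The other settings tried are given in the closing section.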

Additional observations from a re-analysis of the deposited data

Results flagged for a closer look

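alphaTry and betaTry were singled out because the choice effect differed between the species by the interaction test with 7 arrays. alphaTry gave log2 1.37 (adjusted p = 0.046) and betaTry 1.32 (adjusted p = 0.0017), each as the effect in sechellia minus that in simulans. The choice level in sechellia is array 2 alone there. With 8 arrays the values were 1.27 and 2.04 and neither passed (adjusted p = 0.64 for each). With the 7 arrays centred on their medians, alphaTry lost the call at 1.29 (adjusted p = 0.05 after rounding), while betaTry kept it at 1.23 (adjusted p = 0.0039).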

How the results depend on the processing

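The signs of the species difference averaged over treatments held for all 9 members under every setting run, and alphaTry, betaTry and epsilonTry stayed called under all of them. The count of members called was 8 as reported, 4 after median centring, 6 after quantile normalization, and between 5 and 9 with an array left out. Among the latter it was lowest, for example, without array 1 of sechellia no choice and highest without array 2 of sechellia choice. Under choice, where it was 6, it was 3 after median centring, 3 without an intensity trend, 1 with only the arrays compared, and between 3 and 9 with an array left out. Under no choice, where it was 5, it was 3 after median centring, 3 without a trend, 8 with only the arrays compared, 8 with the other 7 arrays after quantile normalization or median centring (the last added after seeing the data), and between 3 and 8 with an array left out. For choice in sechellia it was 0, and 2 with 7 arrays after quantile normalization or median centring, and between 0 and 7 with an array left out. For the interaction it was 0, then 2 after quantile normalization of 7 arrays, 1 after median centring of them, and between 0 and 4 with an array left out. In simulans it stayed at 0. Under choice, for choice in sechellia and for the interaction, the highest count with an array left out also came without array 2 of sechellia choice. In these comparisons and between the species, the counts over all tested probe sets, given below, were highest there too. The members' counts in that setting are therefore not read as a result about the family. The cause of these shifts was not tested.

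Over all tested probe sets, the count called between species was 1297, against 419 after median centring, 4419 after quantile normalization of 7 arrays and 472 to 8160 with an array left out. Under choice it was 544, against 19 to 2726 under other settings and 50 to 8980 with an array left out, and under no choice 554, against 117 to 3803 and 107 to 3705. For choice in sechellia it was 7, against 0 to 466 and 1 to 8671; in simulans 1, against 0 to 67 and 0 to 36; for the interaction 2, against 0 to 414 and 0 to 7300.

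Same-numbered arrays deviated from their group means with correlations of -0.12 to 0.05 between groups, so no shared deviation was seen. These correlations cannot exclude pairing, because each group has few arrays and some values include the differing array of sechellia choice. Whether array numbers pair the samples is therefore unknown. With the replicate block, 7 members were called between the species on average, 4 under choice, 4 under no choice and 0 for choice in sechellia, in simulans and for the interaction, while over all tested probe sets the block gave 313 under choice and 4 for choice in sechellia. Signals near background limit epsilonTry in sechellia.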
